A study of Mus musculus with 75 samples.

Results

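The genes of the mitochondrial ribosome were read as every gene symbol that starts with Mrpl or Mrps followed by a digit. The deposited gene tables held 75 of them, 46 large-subunit (Mrpl) and 29 small-subunit (Mrps) names, among 21625 genes present in both tables. The rule reads names and no measured value. They were measured by RNA-seq in 75 libraries of mouse tissue, 29 of epididymal white fat (eWAT), 30 of inguinal white fat (iWAT) and 16 of gastrocnemius muscle. Each mouse carried 1 of 4 pairings of a nuclear (n) and a mitochondrial (mt) genome. C57n:C57mt is the C57BL6/J wild type and C3Hn:C3Hmt the C3H/HeN wild type, while the exchange lines C57n:C3Hmt and C3Hn:C57mt keep the nuclear genome of 1 strain with the mitochondrial DNA (mtDNA) of the other. All mice were weaned onto chow and either stayed on it or were given a high-fat diet (HFD) at 6 weeks of age until 12-13 weeks. The labels do not give their sex. Muscle was sampled on chow only, which gives 47 chow and 28 HFD libraries (the latter fat only), in 20 groups of 3 or 4 from 43 animals.

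The mitochondrial ribosome is built from ribosomal RNA transcribed from mtDNA and from proteins that are all encoded in the nucleus, made in the cytosol and imported. It translates the few messenger RNAs of mtDNA, which encode membrane subunits of the respiratory chain and of ATP synthase. Its large subunit joins amino acids and its small subunit reads the messenger RNA. Some of its proteins descend from bacterial ribosomal proteins and others exist only in mitochondria. From general knowledge, 45 members were classed as homologues of bacterial ribosomal proteins, 27 as mitochondria-specific and 3 (Mrpl55, Mrps28 and Mrps36) were left unclassified. Counts by class below rest on this assignment alone. The pairing of nuclear and mitochondrial genomes bears on this complex directly, since its proteins and its RNA come from different genomes.

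Promoter sequences from RefSeq (GRCm38.p6) were matched for 66 of the 75 members. The 150 bases before the start site are shown for 5 members that recur in the results: Mrpl35 and Mrpl14, whose levels differed between the nuclear genomes in most settings; Mrps27 and Mrps26, lower on HFD in both fat depots; and Mrpl39, a mitochondria-specific member that differed between nuclear genomes in muscle. Each is written 5′ to 3′ on the gene's own strand, and capitals mark a motif match on either strand. Mrpl35 lies at chr6:71823785-71823934 (minus strand), Mrpl14 at chr17:45686199-45686348 (plus), Mrps27 at chr13:99344636-99344785 (plus), Mrps26 at chr2:130563607-130563756 (plus) and Mrpl39 at chr16:84735245-84735394 (minus).
Mrpl35: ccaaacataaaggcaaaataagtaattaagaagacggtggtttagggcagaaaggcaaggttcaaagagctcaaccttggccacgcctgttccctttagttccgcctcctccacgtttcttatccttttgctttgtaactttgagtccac
Mrpl14: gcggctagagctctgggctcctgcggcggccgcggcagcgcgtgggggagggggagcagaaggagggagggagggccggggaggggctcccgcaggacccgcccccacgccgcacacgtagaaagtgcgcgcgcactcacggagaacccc
Mrps27: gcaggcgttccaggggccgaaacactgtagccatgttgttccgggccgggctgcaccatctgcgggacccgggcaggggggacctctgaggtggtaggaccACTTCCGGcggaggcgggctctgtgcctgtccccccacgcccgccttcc
Mrps26: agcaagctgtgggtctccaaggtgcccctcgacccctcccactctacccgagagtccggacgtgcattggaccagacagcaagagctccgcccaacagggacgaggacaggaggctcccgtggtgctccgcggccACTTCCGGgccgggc
Mrpl39: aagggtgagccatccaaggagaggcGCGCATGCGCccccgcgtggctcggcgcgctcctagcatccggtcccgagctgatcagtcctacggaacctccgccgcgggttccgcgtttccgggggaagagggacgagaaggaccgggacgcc
Mrps27 and Mrps26 hold an ETS-type motif at 49 and 15 bases before the start, and Mrpl39 holds 2 overlapping NRF1-type matches. Mrpl35 and Mrps27 also hold a YY1-type motif just after the start, outside the printed part. No motif letters lie in the printed part of Mrpl35 or Mrpl14.

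Motifs were searched on both strands over 250 bases before to 50 after each start. NRF1 and the ETS factor GABP are known as activators of nuclear genes for mitochondrial proteins, and YY1 as a factor with sites near the start of many housekeeping genes. The NRF1-type letters GCATGCGC were present in 8 of 66 members (12.1%) and in 3.05% of all 27025 promoters. The ETS-type letters CCGGAAGT were present in 12 members (18.2%) and in 4.31% of all promoters, and the YY1-type letters AAGATGGCG in 7 (10.6%) and 1.64%. At least 1 of the 3 was found in 25 members (37.9%) and in 8.47% of all promoters. Member promoters had a median G+C of 58.0%, against 52.8% over all promoters. In the gene models, 16 of 75 members (21.3%) had a neighbour that starts within 1000 bases on the opposite strand and runs the other way, against 7.1% of 22215 protein-coding genes. A match is a description of the letters and not evidence of a bound site.

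Total expected counts per library ranged from 19.3 to 28.8 M (mega) in eWAT and 21.2 to 26.3 M in iWAT on chow, from 15.7 to 23.9 M and 16.1 to 25.8 M on HFD, and from 20.4 to 31.5 M in muscle. All 75 members were deep enough to be tested in each tissue. Levels are CPM, counts relative to library size scaled by the trimmed mean of M values (TMM), and a gene was called when its p, adjusted after Benjamini and Hochberg over all genes, was under 0.05 in edgeR's quasi-likelihood test. Within a tissue, libraries of a group came from separate animals, and p-values rest on the spread between them. Between tissues, 27 animals gave more than 1 tissue, and the fit of all tissues treats their libraries as separate. The titles hold codes that the labels do not explain and that are read here as sequencing run and lane. By these codes, the chow samples were sequenced in 1 run and the HFD samples in others, so diet and run cannot be told apart. On chow each lane held 1 tissue only, and within a tissue the lane followed the nuclear genome in all but 1 library. Neither tissue nor nuclear genome can therefore be told apart from lane on chow. Reads of C3Hn mice were counted against the C57BL/6J-derived mm9 genome, and the part of this in nuclear differences was not tested. In 6 eWAT libraries the summed epididymal epithelium markers were over 1000 CPM (at most 118.08 CPM in the others), and the eWAT counts and medians are given with and without them. Muscle fibre markers summed to 338720 to 475230 CPM in muscle and to 22.4 to 643 CPM in eWAT on chow. Adipocyte markers summed to 4576 to 39712 CPM in eWAT, 17387 to 36212 in iWAT and 454 to 1070 in muscle on chow. In such bulk samples, fewer cells of a type and less RNA per cell cannot be told apart.

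The summed level of the 75 members was highest in muscle. On chow it ran from 2009 to 3286 CPM in eWAT (median 2389), from 2074 to 3283 in iWAT (median 2563) and from 5278 to 6752 in muscle (median 5855). The muscle and fat libraries did not overlap. On HFD it ran from 1541 to 3394 CPM in eWAT (median 2052) and from 1613 to 3857 in iWAT (median 2267), overlapping chow in both depots. The 3 eWAT libraries of C3Hn:C57mt on HFD were at 1541, 1647 and 1687 CPM.

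**Figure D1:**
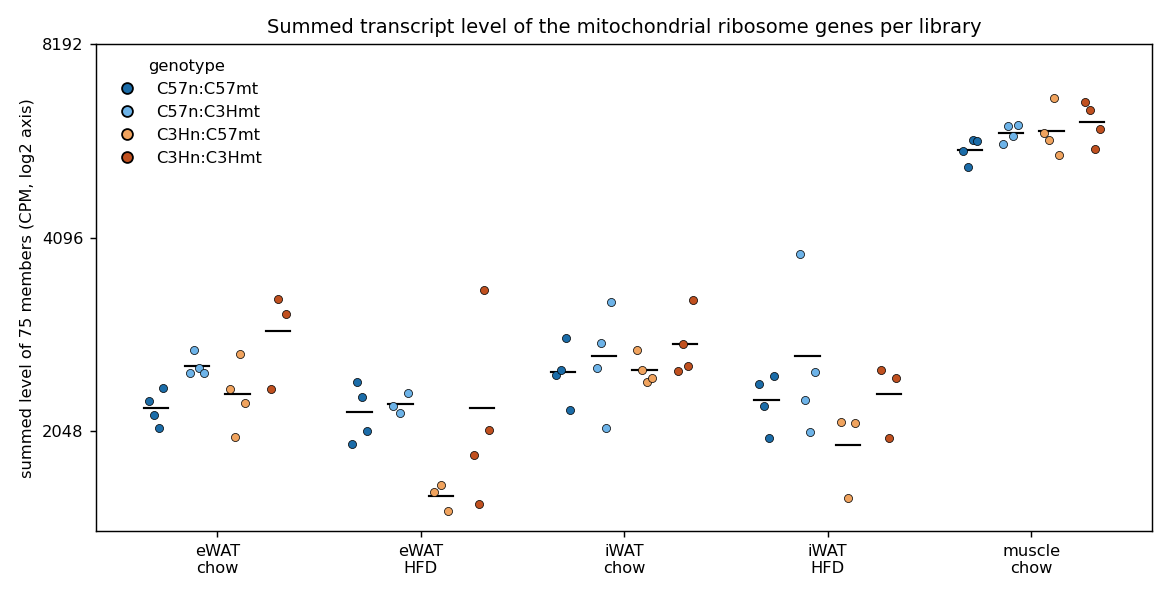
Each point is 1 library: the summed CPM of the 75 members (log2 axis) by tissue and diet, coloured by genotype, with a bar at each group's mean. The 16 muscle libraries lie at 5278 to 6752 CPM, above every fat library; 1 HFD library in each depot (3394 CPM in eWAT and 3857 CPM in iWAT) stands above the rest of its group.

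Levels of different members were compared on chow per kilobase of 1 transcript per gene, its first-numbered one in the annotation or else its longest. Mrps21, a small-subunit homologue of bacterial S21, was among the 4 highest in each tissue, at 103 ± 23.8 CPM per kilobase in eWAT (SD, n = 15), 105 ± 14.1 in iWAT (n = 16) and 350 ± 27.2 in muscle (n = 16). Mrpl33, a small large-subunit protein, followed at 80.6 ± 17.2, 90.8 ± 13.0 and 239 ± 25.0. At the other end, Mrpl19 stood at 2.65 ± 0.458, 2.96 ± 0.346 and 6.02 ± 0.583 CPM per kilobase, and Mrpl47 at 2.10 ± 0.937, 2.75 ± 0.550 and 6.43 ± 1.10. Mrpl35 and Mrps25 completed the 4 lowest members in every tissue. The highest and lowest members differed 58.52-fold in eWAT, 38.05-fold in iWAT and 58.13-fold in muscle. The order of the members was nearly the same in both fat depots (Spearman's rho 0.98 across the 75 members, which share libraries) and less alike between fat and muscle (0.83 and 0.84). The choice of transcript length sets the place of Mrpl33. With the mean length of each gene's annotated transcripts instead, it ranked 35 in eWAT, 33 in iWAT and 22 in muscle.

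Mrps6 changed place most. It was the highest member per kilobase in eWAT (123 ± 36.2) and second to Mrps21 in iWAT (102 ± 35.5), but ranked 55 of 75 in muscle (31.3). Mrpl20 was in the top 4 in eWAT (75.4 ± 18.9) and ranked 28 in muscle (73.6). In muscle, Mrpl14 (205 ± 65.2) and Mrpl30 (204 ± 15.8) completed the top 4. The SD of Mrpl14 there spans 2 separate sets of libraries, described with the nuclear genome.

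Muscle held more mitoribosomal transcript than either fat depot, across almost the whole complex. Against eWAT on chow, 71 of 75 members were higher in muscle and 1 was lower, with a median log2 fold change of 1.22, where 31.5% of all genes tested were higher and the median of all genes was -0.53. Against iWAT, 71 were higher and 1 lower (median 1.06), where 32.9% of all genes were higher and the median was -0.36. Sorted by name, 43 of 46 Mrpl and 28 of 29 Mrps members were higher than in eWAT. Of the homologues of bacterial proteins 42 of 45 were higher, and of the mitochondria-specific members 26 of 27. Without the 6 eWAT libraries with epithelial markers, 69 were higher and 1 lower than eWAT (median 1.18).

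The member that rose most was Mrpl15, a large-subunit homologue of bacterial L15. It ranged from 19.8 to 32.1 CPM in eWAT (median 23.7), 25.7 to 42.9 in iWAT (median 29.4) and 119 to 214 in muscle (median 155). No library overlapped between muscle and fat. Mrpl15 was 6.44-fold higher in muscle than in eWAT (log2 fold change 2.69, SE 0.09, adjusted p = 1.72e-34) and higher than in iWAT by 2.32 on the log2 scale (adjusted p = 1.70e-32).

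The next members by adjusted p against eWAT behaved alike. Mrpl18, of the large subunit, ran from 31.0 to 46.7 CPM in eWAT (median 34.1), from 33.6 to 50.2 in iWAT (median 39.4) and from 140 to 198 in muscle (median 167). Mrps23, a mitochondria-specific small-subunit protein, ran from 26.8 to 40.6 CPM in eWAT (median 32.3), from 30.1 to 51.8 in iWAT (median 36.6) and from 121 to 156 in muscle (median 135). In neither gene did muscle and fat overlap, and the log2 fold changes against eWAT were 2.21 (adjusted p = 7.48e-34) and 2.05 (adjusted p = 1.82e-33). Mrpl2 and Mrpl45, both of the large subunit, rose by 1.81 and 1.72 against eWAT and by 1.61 and 1.60 against iWAT.

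Mrps6, a small-subunit homologue of bacterial S6, was the exception. It ran from 49.5 to 162 CPM in eWAT (median 102), from 44.5 to 146 in iWAT (median 81.2) and from 21.1 to 32.2 in muscle (median 26.3), so that every muscle library was below every fat library. It was lower in muscle, with a log2 fold change of -1.96 (SE 0.14, adjusted p = 2.67e-19) against eWAT and -1.68 (adjusted p = 6.63e-17) against iWAT. In the gene models used here, 43.8% of the exonic bases of Mrps6 (696 bases) are shared with Slc5a3, an inositol transporter gene on the same strand, so reads of the 2 genes may be divided either way. Slc5a3 was itself lower in muscle, with log2 fold changes of -3.53 against eWAT and -3.42 against iWAT. The part of shared reads in the Mrps6 difference was not tested. On HFD Slc5a3 was higher by 1.06 in eWAT and 1.39 in iWAT, and Mrps6 was not called (-0.23, adjusted p = 0.184, and 0.13, adjusted p = 0.567).

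The 3 members not called against eWAT, named here after their values were seen, were Mrpl10 (0.11, adjusted p = 0.124), Mrpl20 (-0.03, adjusted p = 0.810) and Mrpl41 (0.12, adjusted p = 0.250). Mrpl10 (-0.07) and Mrpl20 (0.05) were not called against iWAT either. Variants in several members cause mitochondrial disease in humans, and of the 10 members followed for that reason or for work in other organisms, all were higher in muscle than in eWAT. The log2 fold changes were 0.57 for Mrps2, 0.71 for Mrps22, 1.09 for Mrps14, 1.12 for Mrpl3, 1.17 for Mrps34, 1.23 for Mrps5, 1.25 for Mrps7, 1.42 for Mrpl44, 1.57 for Mrps16 and 1.84 for Mrpl12. Exons of Mrps34 overlap those of Mapk8ip3 and Nme3 over 63.4% and 37.0% of its bases, which makes its value uncertain. The same holds for Mrps25, with 53.7% of its bases shared with Nr2c2, for Mrps18b, with 30.5% shared with a noncoding gene, and for Mrpl18, with 10.1% shared with Tcp1, all on opposite strands. Mrpl19 shares 36.0% with AW146020, Mrpl24 26.3% with Rrnad1 and Mrps27 22.6% with a noncoding gene, also on opposite strands. Mrpl10, Mrpl12, Mrpl46 and Mrpl47 share 12.4% to 14.1% with an opposite-strand neighbour. The paralogs of bacterial S18 were all higher in muscle as well, Mrps18a by 1.57, Mrps18b by 1.10 and Mrps18c by 1.04. Their median CPM was 34.8, 35.5 and 22.7 in eWAT and 111, 75.2 and 47.1 in muscle.

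**Figure D2:**
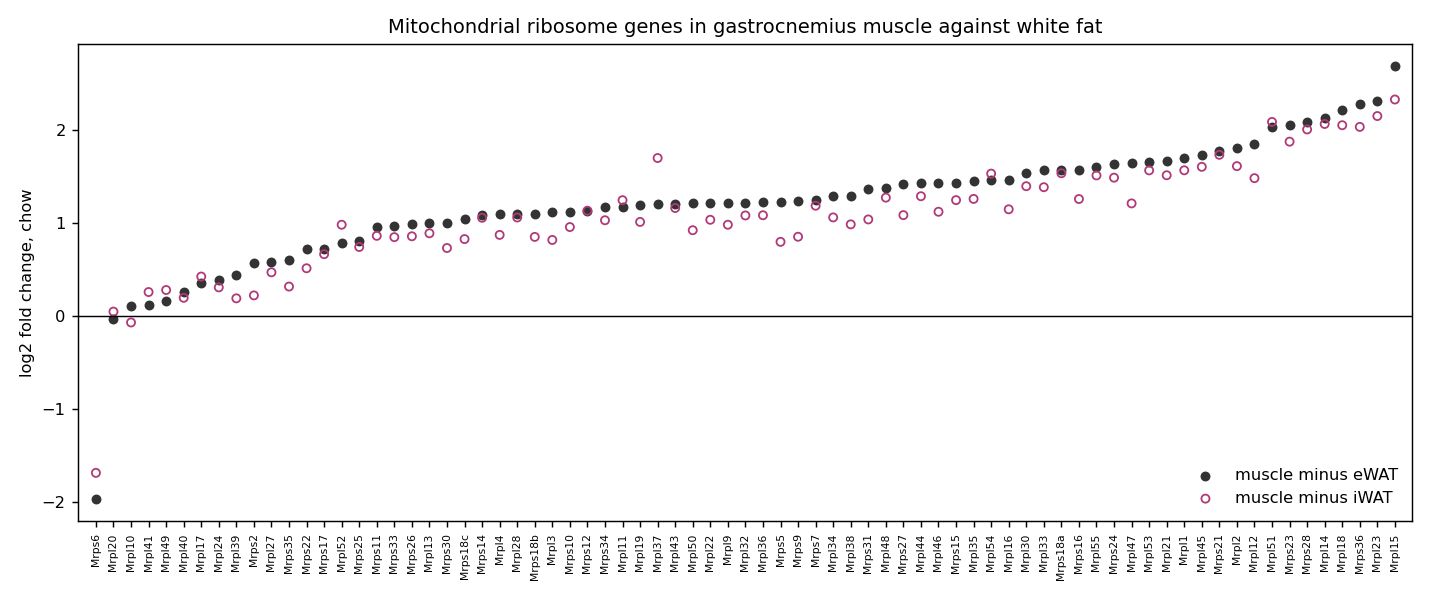
Log2 fold changes of muscle minus eWAT (filled) and muscle minus iWAT (open) on chow, 1 position per member, in the order of the eWAT difference. Mrps6 is the single member well below 0 and Mrpl15 stands highest, at 2.69 and 2.32.

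Partners of the mitoribosome were higher in muscle too. The 7 subunits whose names fall outside the naming rule were all higher in both comparisons (median 1.04 and 1.06). All 37 nuclear subunits of complex I measured were higher, with medians of 2.30 and 1.93, and the 3 mtDNA-encoded transcripts measured were higher by a median of 2.55 and 1.81. Mitoribosome assembly factors were higher in 14 of 17 cases against eWAT, translation factors in 12 of 14 and mitochondrial aminoacyl-tRNA synthetases in 15 of 19. Tfam, which packages mtDNA and starts its transcription, was higher by 1.70 and 1.497, and Polrmt, the mitochondrial RNA polymerase, by 1.17 and 0.85. Cytosolic ribosomal proteins were higher in 46 of 80 cases against eWAT and 27 of 80 against iWAT.

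Between the fat depots the difference was small and pointed to iWAT. On chow, 25 of 75 members were lower in eWAT than in iWAT and 1 was higher, where 16.2% of all genes were lower; the median was -0.15 against 0.03 over all genes. On HFD, 27 were lower and none higher, where 15.7% of all genes were lower; the median was -0.19 against -0.03, and 74 of 75 log2 fold changes were negative. Mrps9, a small-subunit homologue of bacterial S9, ran on chow from 18.2 to 31.3 CPM in eWAT (median 23.5) and from 25.4 to 37.1 in iWAT (median 31.3). On HFD it ran from 14.5 to 24.0 (median 18.4) and from 20.4 to 30.9 (median 23.4). The depots overlapped on both diets, with log2 fold changes of -0.38 (adjusted p = 2.38e-06) and -0.40 (adjusted p = 4.03e-06).

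Mrps5, of the small subunit, ran on chow from 13.8 to 31.3 CPM in eWAT (median 24.8) and from 25.1 to 39.6 in iWAT (median 32.8), and differed by -0.43 on chow and -0.45 on HFD. Mrps27, a mitochondria-specific protein that contacts the small-subunit RNA, differed by -0.33 (adjusted p = 8.81e-05) on chow and -0.29 on HFD. Mrps2 (-0.35) and Mrpl38 (-0.30) were the others with the smallest adjusted p on chow, though Mrps2 was not called without the 6 libraries with epithelial markers (-0.19, adjusted p = 0.0671), and Mrps35 (-0.47), Mrpl9 (-0.39) and Mrpl47 (-0.56) on HFD. Mrpl37, a mitochondria-specific large-subunit protein, was the member higher in eWAT on chow (0.50, adjusted p = 0.0306), and without the 6 libraries with epithelial markers its difference was -0.02. Without those 6 libraries the chow count was 12 members, and without the replicate 4 libraries it was 13. On HFD the count was 7 without the replicate 1 libraries and 16 without the replicate 4 libraries. The shares of all genes called in these refits are not given here. The depot difference did not pass the test of its own change with diet in any member (0 of 75, with 0 at an unadjusted p under 0.05). Over all genes, 293 of 18498 passed it.

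Brown and beige fat markers, which mark adipocytes rich in mitochondria, moved with this difference. Their sum ran on chow from 21.2 to 401 CPM in eWAT (median 57.6) and from 100 to 2284 in iWAT (median 671), and on HFD from 21.98 to 73.8 (median 37.0) and from 49.7 to 800 (median 155). In eWAT on chow, lymphocyte markers were lower than in iWAT in 16 of 16 cases (median -4.49) and muscle fibre markers in 12 of 12 (median -6.18). The part of these cell types in the depot difference was not tested. The mtDNA-encoded transcripts were lower in eWAT in 3 of 3 cases on chow (median -0.73), and complex I subunits in 27 of 37.

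On HFD the mitoribosomal genes that changed were lower in both fat depots, by small amounts. Taken as the mean of the 4 genotypes, 39 of 75 members were lower in eWAT and none higher, where 22.9% of all genes were lower. The median log2 fold change was -0.28, against -0.10 over all genes, and 69 of 75 values were negative. In iWAT 28 were lower and none higher, where 16.2% of all genes were lower, with a median of -0.19 against 0.01 and 60 of 75 values negative. Of these, 26 were lower in both depots, which is 66.7% of the eWAT calls and 92.9% of the iWAT calls, and 34 were called in neither. Over the 16371 genes tested in both depots, 1946 were lower in both, which is 52.1% of their eWAT calls and 72.3% of their iWAT calls. Without the 6 eWAT libraries with epithelial markers, 44 members were lower in eWAT, where 22.3% of all genes were lower, with a median of -0.35 against -0.03. With a term for run, which adjusts among the HFD runs and cannot separate them from chow, 14 members were lower in eWAT and 13 in iWAT, where 7.17% and 14.2% of all genes were lower. In iWAT, C3Hn:C3Hmt replicate 3 on HFD was alone in its run, so the run term had no other library to set it against. In eWAT 25 of 46 Mrpl and 14 of 29 Mrps members were lower, and in iWAT 13 of 46 and 15 of 29.

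Mrpl2, a homologue of bacterial L2 near the catalytic centre, had the smallest adjusted p in eWAT. It ran from 30.7 to 46.6 CPM on chow (median 34.6) and from 20.2 to 39.7 on HFD (median 24.9) in eWAT, and from 31.5 to 53.8 (median 42.4) and 22.5 to 40.6 (median 29.1) in iWAT. The diets overlapped in both depots. Mrpl2 changed by -0.54 in eWAT (adjusted p = 6.66e-06) and by -0.48 in iWAT (adjusted p = 5.58e-05).

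Mrpl38, a mitochondria-specific protein of the large subunit, had the smallest adjusted p in iWAT. It ran from 29.8 to 55.3 CPM on chow (median 42.8) and from 22.2 to 36.9 on HFD (median 26.1) in iWAT, and from 27.1 to 48.9 (median 33.8) and 19.6 to 42.1 (median 23.8) in eWAT. Its log2 fold changes were -0.64 (adjusted p = 1.38e-06) and -0.49 (adjusted p = 5.83e-05). Mrps12, the homologue of the bacterial protein that streptomycin resistance maps to, changed by -0.73 in eWAT (adjusted p = 1.98e-05), from a range of 20.0 to 36.1 CPM (median 24.1) to 8.78 to 28.5 (median 14.9). Mrps34 changed by -0.62 in eWAT (adjusted p = 1.26e-05) with the reservation on its shared exons. In iWAT, Mrps15 changed by -0.53 (adjusted p = 0.000243), Mrps9 by -0.32 (adjusted p = 0.000248) and Mrpl4 by -0.41 (adjusted p = 0.000294).

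The base composition of the libraries moved with diet. The median G+C content of aligned reads was 49.39% on chow and 48.83% on HFD in eWAT, and 49.03% and 48.17% in iWAT, and the median insert length fell from 157.0 to 149.4 bases and from 155.2 to 150.5 bases. Across the 75 members, the diet difference was more negative in transcripts with more G+C (Spearman's rho -0.64 in eWAT and -0.59 in iWAT). Each library was therefore also corrected for a smooth trend of log2 counts on G+C content and transcript length. After this, 24 members were lower and 1 higher in eWAT, where 15.8% of all genes were lower, and 25 were lower and 4 higher in iWAT, where 7.02% were lower. The medians were -0.13 and -0.14, against -0.07 and 0.02 over all genes, and rho with G+C was 0.48 and 0.58, now positive. With transcript length, rho went from 0.20 to -0.52 in eWAT and from 0.11 to -0.58 in iWAT, so the correction left the members with a dependence on both. Of the calls on the counts as deposited, 18 of 39 in eWAT and 11 of 28 in iWAT were also made after correction. Mrpl38 and Mrps34 in eWAT and Mrpl2 in iWAT were no longer called, and Mrpl4 in iWAT changed sign (0.05). Mrpl2 (-0.13) and Mrps12 (-0.27) in eWAT and Mrpl38 (-0.205) and Mrps15 (-0.34) in iWAT stayed called with smaller differences. Mrps9 in iWAT stayed called with a larger one (-0.47). How far the diet differences reflect base composition cannot be told apart from diet here, because the chow and HFD libraries came from different runs.

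The members lower in both depots with and without this correction, named after their values were seen, were Mrps5, Mrps9, Mrps26, Mrps27, Mrpl16, Mrpl24 and Mrpl46. The share of all genes that meet the same rule is not given here. After correction, longer transcripts among the members had more negative differences (Spearman's rho -0.52 in eWAT and -0.58 in iWAT). The part of this in the corrected values below was not tested. The reservation on shared exons applies to Mrps27, Mrpl24 and Mrpl46. Mrps26, a mitochondria-specific small-subunit protein, ran in eWAT from 22.2 to 37.3 CPM on chow (median 25.0) and from 15.8 to 34.7 on HFD (median 18.1), and in iWAT from 24.7 to 39.9 (median 28.9) and from 14.3 to 36.5 (median 19.8). The ranges overlapped, and it changed by -0.49 in eWAT (adjusted p = 0.000153) and -0.42 in iWAT, or by -0.60 and -0.50 after correction. Mrps9 changed by -0.37 and -0.32, or by -0.46 and -0.47 after correction. Mrps5 changed by -0.32 and -0.28, or by -0.53 and -0.48 after correction. Mrps27 ran in eWAT from 15.1 to 23.5 CPM on chow (median 19.4) and from 12.3 to 19.7 on HFD (median 14.6), and changed by -0.37 there and by -0.23 after correction. The members higher after correction were Mrpl23 in both depots and Mrpl40, Mrpl54 and Mrps28 in iWAT, again named after their values were seen. Of the 7, 2 held at least 1 of the 3 promoter motifs, against 10 of the 30 members with a promoter that were lower in neither depot.

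**Figure D3:**
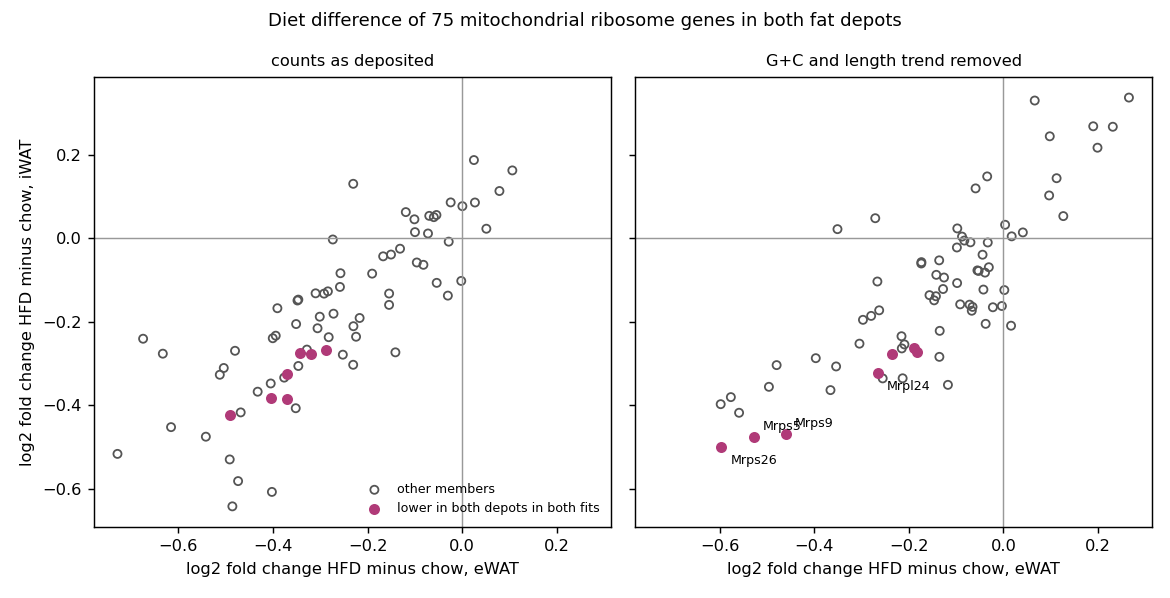
Each point is 1 member: its log2 fold change HFD minus chow in eWAT (x axis) and iWAT (y axis), from counts as deposited (left) and after removal of the G+C and length trend (right). The 7 filled members were called lower in both depots in both fits; Mrps5, Mrps9 and Mrps26 lie lowest of them on the right, between -0.46 and -0.60 in eWAT.

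The diet difference was not called evenly over genotypes, although the difference between genotypes did not pass its own test. In eWAT 2 members were lower on HFD in C57n:C57mt mice, 1 with C57n:C3Hmt, 3 in the C3Hn:C3Hmt wild type and 21 with C3Hn:C57mt, with medians of -0.04, -0.11, -0.42 and -0.51. Of all genes, 10.2%, 3.97%, 0.792% and 5.40% were lower in the same order. Without the 6 libraries with epithelial markers, 1, 0, 10 and 38 members were lower. The medians were then -0.13, -0.26, -0.35 and -0.64, against -0.04, -0.01, 0 and 0.01 over all genes. The shares of all genes lower in these fits are not given here. In iWAT 6, 1, 1 and 7 were lower, with medians of -0.19, 0.02, -0.17 and -0.36, where 7.28%, 6.86%, 1.34% and 3.37% of all genes were lower. A test of the diet difference between nuclear genomes called 0 of 75 members in eWAT (34 at an unadjusted p under 0.05 in edgeR, 0 called by DESeq2) and 0 in iWAT (10 unadjusted, 2 by DESeq2). Between mtDNAs it called 0 of 150 tests in eWAT (4 unadjusted, 0 by DESeq2) and 0 of 150 in iWAT (1 unadjusted, 0 by DESeq2). Over all genes, the test between nuclear genomes called 0 of 17687 in eWAT and 121 of 16884 in iWAT. That between mtDNAs called 0 of 35374 tests in eWAT and 0 of 33768 in iWAT. These counts lean on single libraries. Without C3Hn:C3Hmt replicate 3 on HFD, the eWAT library with the highest member sum of 3394 CPM, 29 members were called in the test between nuclear genomes and 104 calls, summed over genotypes, in place of 27. Without C3Hn:C57mt replicate 3 on HFD the summed calls were 6, and without its replicate 1 or 2 they were 10. In iWAT the mean over genotypes gave 44 calls without C57n:C3Hmt replicate 1 on HFD and 43 without C3Hn:C3Hmt replicate 3 on HFD, in place of 28. That C3Hn:C3Hmt library was alone in its run and had a mean insert of 137.1 bases, against a median of 150.5 in iWAT on HFD. How many of all genes were called in the refits without single libraries is not given here, so their counts cannot be read as particular to the members.

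Other mitochondrial gene groups moved to different extents. Complex I subunits were lower on HFD in 27 of 37 cases in eWAT (median -0.39) and 24 of 37 in iWAT (median -0.37), and mitochondrial aminoacyl-tRNA synthetases in 11 and 9 of 19 (1 higher in iWAT). Translation factors were lower in 5 of 14 cases in each depot, and the mitoribosome subunits outside the naming rule in 5 and 3 of 7. Assembly factors went both ways, with 6 lower and 2 higher of 17 in eWAT and 7 lower and 4 higher in iWAT. Polrmt changed by -0.50 in eWAT (adjusted p = 9.53e-05) and by -0.75 in iWAT (adjusted p = 2.25e-08), while Tfam was not called (-0.15 and 0.08). Of the mtDNA-encoded transcripts, Cox2 changed by -0.62 and -0.64, Atpase6 stood at -0.42 and -0.35 (adjusted p = 0.0828 in iWAT), and mt-Nd4 at -0.17 and -0.05, called in neither depot. Cytosolic ribosomal proteins were lower in 28 of 79 cases in eWAT and 2 of 80 in iWAT. Macrophage markers were higher in 10 and 9 of 11 cases, their sum running in eWAT from 224 to 3267 CPM on chow and from 664 to 10984 on HFD. Brown and beige fat markers were lower in 6 of 15 cases in each depot (median -0.76 in eWAT and -0.96 in iWAT). In iWAT 0 of 16 lymphocyte markers were called, although all 16 values were negative (median -1.11), and in eWAT 8 of 15 epithelial markers were lower (median -4.46). The part of these cell types in the diet difference was not tested. With the mean lymphocyte and muscle fibre markers as covariates, 32 members were lower in iWAT (share of all genes not given here). Of the members followed for human disease or work in other organisms, Mrpl12 (-0.47 and -0.58), Mrps7 (-0.33 and -0.27) and Mrps16 (-0.40 and -0.35) were lower in both depots, as was Mrps18a (-0.47 and -0.42). Mrpl44 was lower in eWAT (-0.26) and not called in iWAT (-0.08, adjusted p = 0.364), and Mrps14 was called in neither (0.11 and 0.16). After the G+C and length correction, Mrpl12, Mrps7, Mrps18a and Mrpl44 were called in neither depot. Mrps16 was then called only in iWAT (-0.15), and Mrps14 was called lower in eWAT (-0.30).

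The nuclear genome was tested as the mean of C57n lines minus the mean of C3Hn lines within each tissue and diet. In muscle 6 members were higher and 26 lower with the C57 nuclear genome, where 17.1% of all genes were higher and 16.5% lower, and the median was -0.09 against -0.00 over all genes. In eWAT on chow 2 were higher and 6 lower, where 15.1% of all genes were called in either direction and 7.11% were lower, and on HFD 9 higher and 1 lower (5.59% and 7.59%). In iWAT on chow 3 were higher and 1 lower (5.70% and 6.01%), and on HFD 7 were higher (8.26%). Without the 6 libraries with epithelial markers, 1 was higher and 1 lower in eWAT on chow, and 13 higher and 1 lower on HFD. The medians were then -0.14 on chow and 0.17 on HFD, against 0.02 and -0.01 over all genes. The shares of all genes called in these fits are not given here. In iWAT, marker sums differed widely among libraries of either nuclear genome. Lymphocyte markers summed on chow to 15.3 to 1538 CPM and on HFD to 20.4 to 3202 CPM, and muscle fibre markers to 24.9 to 15102 and 29.8 to 19870 CPM. The median C57n minus C3Hn difference of lymphocyte markers was 0.92 on chow and -2.12 on HFD, and that of muscle fibre markers -2.05 and 2.36, with none called. With both as covariates, 14 members were called in iWAT on HFD (share of all genes not given here). The fat counts moved with single libraries. In eWAT they ranged from 2 (without C3Hn:C3Hmt replicate 2 on chow, for one) to 18 (without C3Hn:C3Hmt replicate 3 on HFD) on chow, and from 1 (without C3Hn:C57mt replicate 3 on HFD) to 36 (without C3Hn:C3Hmt replicate 3 on HFD) on HFD. In iWAT they ranged from 2 (without C57n:C3Hmt replicate 4 on chow) to 7 on chow and from 1 (without C3Hn:C57mt replicate 2 on HFD) to 12 (without C57n:C3Hmt replicate 3 on HFD) on HFD. In muscle the count of 32 ranged from 26 to 38. How many of all genes were called in these refits is not given here.

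Mrpl35, a large-subunit homologue of bacterial L35 (NCBIM37 chr6:71762997-71773804, minus strand), was higher with the C57 nuclear genome in all 5 combinations of tissue and diet. In muscle it ran from 49.97 to 60.4 CPM (median 54.0) in C57n and from 33.4 to 41.7 (median 37.5) in C3Hn libraries. In iWAT it ran from 18.1 to 31.5 (median 23.2) and 13.1 to 17.97 (median 14.2) on chow, and from 21.9 to 42.4 (median 26.6) and 9.99 to 16.6 (median 13.4) on HFD. In none of these 3 did the nuclear genomes overlap. In eWAT it ran from 14.6 to 26.5 (median 21.1) and 8.22 to 16.6 (median 14.6) on chow, and from 19.4 to 26.1 (median 21.99) and 7.59 to 19.5 (median 9.06) on HFD, so the nuclear genomes overlapped there on both diets, on HFD through 1 C3Hn:C3Hmt library. The log2 fold changes were 0.51 in muscle (SE 0.05, adjusted p = 4.99e-07), 0.74 in iWAT on chow (SE 0.13, adjusted p = 0.000192) and 1.04 on HFD (SE 0.14, adjusted p = 7.38e-06). They were 1.11 in eWAT on HFD (SE 0.19, adjusted p = 0.000353) and 0.61 on chow (SE 0.18, adjusted p = 0.0292, and 0.0582 without C3Hn:C3Hmt replicate 1 on chow).

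The Mrpl35 difference was called on either mtDNA in muscle and in iWAT. With C57 mtDNA in both nuclear genomes it was 0.49 in muscle (adjusted p = 7.41e-05) and 0.75 and 0.99 in iWAT on chow and HFD. With C3H mtDNA it was 0.53 in muscle (adjusted p = 3.42e-05) and 0.73 and 1.09 in iWAT. In eWAT it was called with C57 mtDNA on HFD (1.30, adjusted p = 0.00480) and not with C3H mtDNA (0.91, adjusted p = 0.0818), nor on chow with either (0.70 and 0.51).

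Mrpl14, the large-subunit homologue of bacterial L14 (NCBIM37 chr17:45823271-45835444, plus strand), was lower with the C57 nuclear genome in 4 of the 5 combinations. In muscle it ran from 81.6 to 104 CPM (median 93.1) in C57n and from 155 to 199 (median 172) in C3Hn libraries. In eWAT on chow it ran from 19.9 to 24.8 (median 23.4) and 29.2 to 49.1 (median 34.7), and in iWAT on chow from 19.3 to 30.5 (median 24.8) and 32.3 to 43.6 (median 35.2). The nuclear genomes did not overlap in any tissue on chow, and overlapped in both depots on HFD. The log2 fold changes were -0.90 in muscle (SE 0.05, adjusted p = 5.30e-10), -0.71 in eWAT on chow (adjusted p = 0.00256) and -0.51 in iWAT on chow (adjusted p = 0.0125). On HFD they were -0.47 in eWAT (adjusted p = 0.0440, lost in 15 of the 29 fits that leave out 1 library) and -0.19 in iWAT, not called (adjusted p = 0.389). After the G+C and length correction Mrpl14 was called lower on HFD in both depots (-0.47 in eWAT, and -0.26 with adjusted p = 0.0450 in iWAT). In muscle the difference was -0.99 with C57 mtDNA and -0.82 with C3H mtDNA. Exons of Mrpl14 overlap those of Tmem63b on the opposite strand over 11.2% of its bases, and Tmem63b did not pass the test in muscle (-0.08, adjusted p = 0.206).

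**Figure D4:**
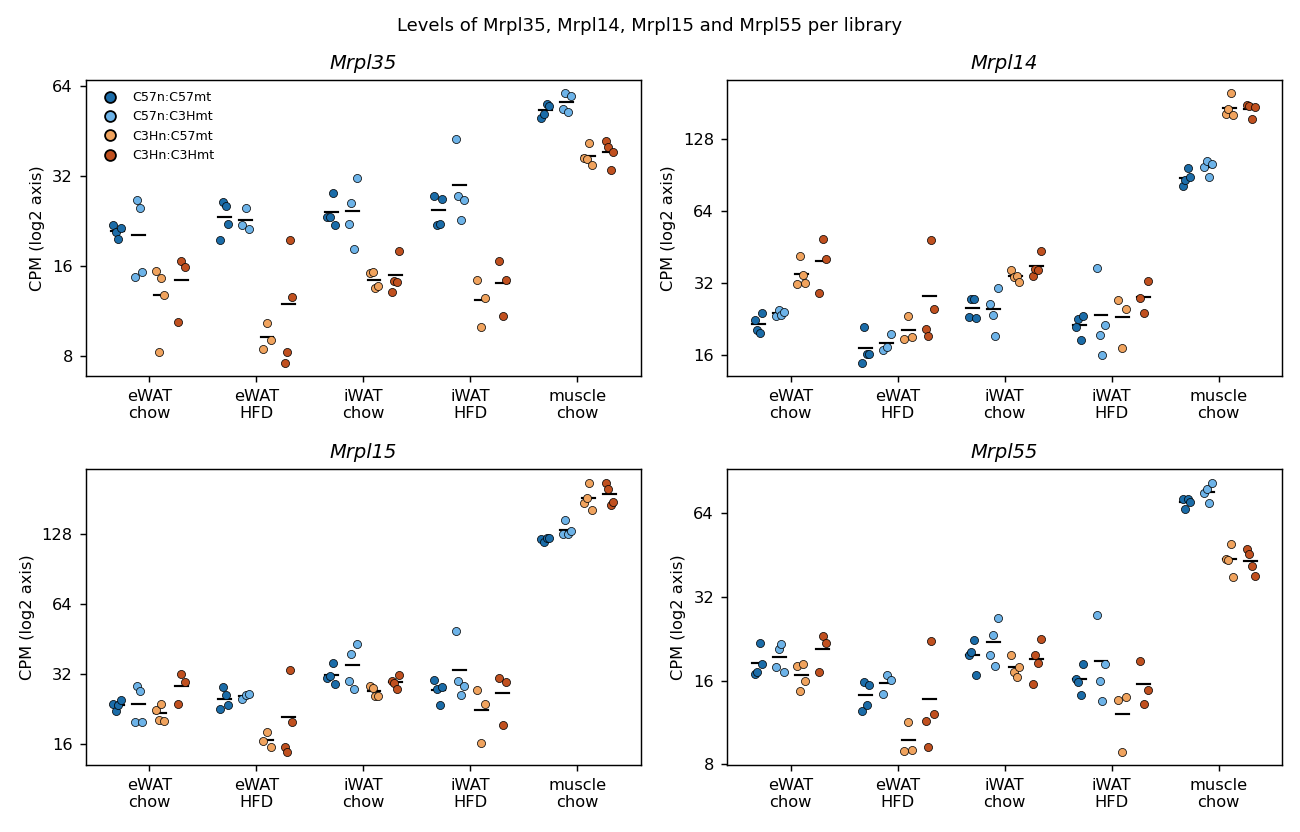
CPM (log2 axis) of Mrpl35, Mrpl14, Mrpl15 and Mrpl55 in each library by tissue and diet, coloured by genotype with bars at group means. Blue (C57n) and orange (C3Hn) libraries separate for Mrpl35 in muscle and iWAT and for Mrpl14 in every tissue on chow; for Mrpl55 they separate in muscle, at 66.3 to 82.7 against 37.8 to 49.6 CPM, and overlap in fat on chow.

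Mrpl55, a large-subunit protein left unclassified here, differed in muscle. It ran from 66.3 to 82.7 CPM (median 72.1) in C57n and from 37.8 to 49.6 (median 43.7) in C3Hn muscle, without overlap. In fat on chow the nuclear genomes overlapped, at 16.9 to 21.8 and 14.7 to 23.2 CPM in eWAT and 16.8 to 26.8 and 15.6 to 22.6 CPM in iWAT. The difference in muscle was 0.74 (SE 0.06, adjusted p = 2.70e-08), and it was larger than that in fat on chow by a test of the difference itself, by 0.72 against eWAT (adjusted p = 0.00380) and by 0.56 against iWAT (adjusted p = 0.0414). This test, added after the data were seen, was run in edgeR over all tissues together.

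Mrpl15, the member that differed most between muscle and fat, was lower with the C57 nuclear genome in muscle, at 119 to 148 CPM (median 126) against 163 to 214 (median 179), again without overlap. Its log2 fold change there was -0.57 (adjusted p = 6.71e-07), and the difference of this from iWAT was -0.80 (adjusted p = 0.00142). In eWAT on HFD Mrpl15 was higher with the C57 nuclear genome (0.42, adjusted p = 0.0401), at 22.5 to 28.0 CPM against 14.7 to 33.3, a call lost in 10 of the 29 fits that leave out 1 library and after the G+C and length correction. In the same test between tissues, the nuclear differences of Mrpl35 and Mrpl14 were not called as unequal in any pair of tissues, with adjusted p from 0.273 to 0.859.

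Mrps14, a homologue of bacterial S14 (NCBIM37 chr1:162125346-162132301), and Mrpl34, a homologue of bacterial L34 (NCBIM37 chr8:73988825-73989651), were called higher with the C57 nuclear genome in 3 combinations each. Mrps14 ran from 75.4 to 97.0 CPM (median 91.2) against 61.7 to 74.8 (median 67.8) in muscle, with no overlap. Its log2 fold change was 0.38 in muscle (adjusted p = 1.10e-05), 0.52 in eWAT on HFD (adjusted p = 0.0338, lost in 9 of the 29 fits that leave out 1 library) and 0.53 in iWAT on HFD (adjusted p = 0.0180). Mrpl34 ran from 41.3 to 53.7 CPM (median 48.0) against 33.7 to 46.8 (median 37.9) in muscle, with overlap, and differed by 0.27 there (adjusted p = 0.0175). In iWAT Mrpl34 differed by 0.61 on chow (adjusted p = 0.0346, lost in 10 of the 30 such fits) and 0.72 on HFD (adjusted p = 0.0174). Mrps27 was higher with the C57 nuclear genome in iWAT on chow (0.39, adjusted p = 0.0196) and in muscle (0.22, adjusted p = 0.000309), at 52.5 to 59.6 CPM (median 55.2) against 44.5 to 51.1 (median 46.4) in muscle, without overlap.

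The other muscle differences were mostly small and downward with the C57 nuclear genome. By the classes assigned here, 16 of 27 mitochondria-specific members were lower and 1 higher, and of the homologues of bacterial proteins 9 of 45 were lower and 4 higher. By name, 17 Mrpl and 9 Mrps members were lower. Mrpl39, a mitochondria-specific protein whose promoter holds the NRF1-type motif printed above, ran from 27.2 to 34.4 CPM (median 30.2) against 34.6 to 42.7 (median 37.2), without overlap, and differed by -0.34 (adjusted p = 3.01e-05). Mrpl38 differed by -0.25 (adjusted p = 0.000322) and Mrpl10 by -0.17 (adjusted p = 0.00143). The mtDNA-encoded transcripts were higher in 3 of 3 cases (mt-Nd4 0.34, Cox2 0.23 and Atpase6 0.25), complex I subunits were lower in 16 of 37 (median -0.13) and cytosolic ribosomal proteins lower in 30 of 79. With C57 mtDNA in both nuclear genomes, 4 members were higher and 15 lower in muscle, where 10.8% and 10.3% of all genes were. With C3H mtDNA, 4 were higher and 6 lower, where 10.5% and 8.96% of all genes were.

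**Figure D5:**
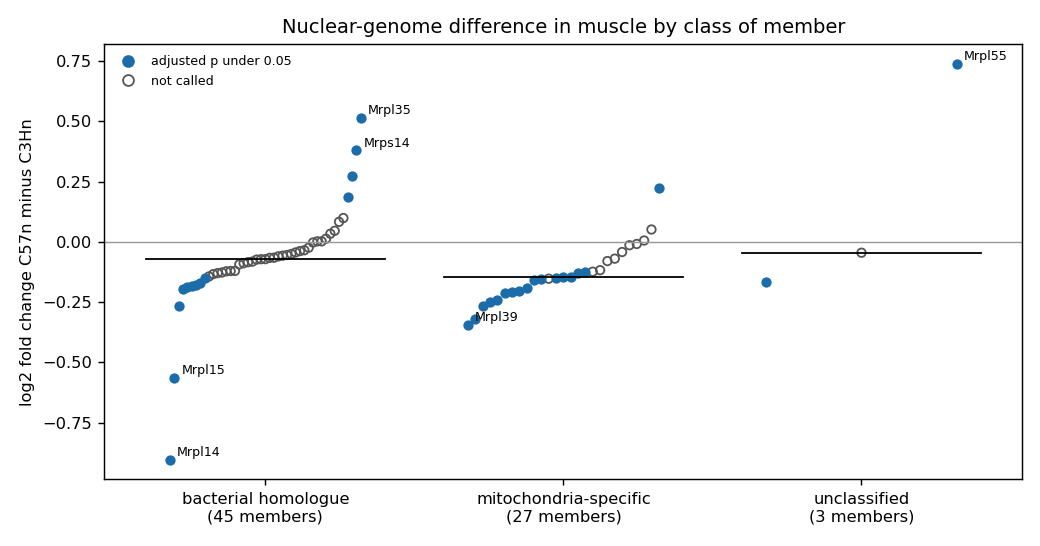
Log2 fold change C57n minus C3Hn in muscle for each member, grouped by class, filled where the adjusted p was under 0.05, with a bar at each class median. Most filled points of the mitochondria-specific class, as assigned here, lie just below 0. Among the largest differences, Mrpl14 (-0.90), Mrpl15 (-0.57) and Mrpl35 (0.51) are classed as homologues of bacterial proteins. Mrpl55 (0.74) was left unclassified and can be placed in neither class.

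In fat the remaining calls were near the threshold. In eWAT on chow the members lower with the C57 nuclear genome besides Mrpl14 included Mrpl19 (-0.36), Mrpl21 (-0.38), Mrpl45 (-0.39) and Mrps10 (-0.48). Without the 6 libraries with epithelial markers, only 1 of all members was called lower there, in place of 6. Mrpl21 was not called there after the G+C and length correction. AW146020, which shares exonic bases with Mrpl19, was higher in eWAT on chow (0.59, adjusted p = 0.0398). Mrpl37 was higher there (1.23, adjusted p = 0.0492), at 34.3 to 433 CPM (median 41.0) against 25.0 to 49.0 (median 40.2), and the C57n:C3Hmt libraries stood at 433, 46.9, 42.7 and 391 CPM. The high values were in libraries with epithelial markers, and without the 6 such libraries the Mrpl37 difference was 0.03. On HFD the members higher with the C57 nuclear genome included Mrpl20 (0.69, adjusted p = 0.0207) and Mrpl51 (0.47) in eWAT and Mrps15 (0.55, adjusted p = 0.0133), Mrpl27 (0.54) in iWAT. After the G+C and length correction Mrpl27 was not called there (0.34, adjusted p = 0.0573). Mrpl44 was higher by 0.33 in both depots on HFD and lower in muscle (-0.19, adjusted p = 0.00299), and 8.8% of its exonic bases overlap Wdfy1 on the opposite strand, which differed by -2.75 in muscle and by -2.66 and -2.08 in eWAT and iWAT on HFD. Macrophage marker sums in eWAT on HFD ran from 664 to 2375 CPM in C57n and from 813 to 10984 in C3Hn libraries, and their part in these differences was not tested.

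Exchanging the mtDNA on a fixed nuclear genome called no member. In eWAT 0 of 300 tests passed (75 members, both nuclear genomes and both diets), where 0.00283% of all genes did, with 53 at an unadjusted p under 0.05 and 7 called by DESeq2. In iWAT 0 of 300 passed, where 0% of all genes did, with 23 unadjusted and 0 by DESeq2, and in muscle 0 of 150, where 0.00364% did, with 5 unadjusted and 0 by DESeq2. On the C3H nuclear genome the median difference of C57 mtDNA minus C3H mtDNA was -0.32 in eWAT on chow, -0.43 in eWAT on HFD, -0.11 and -0.27 in iWAT and -0.03 in muscle. In this order 73, 74, 67, 73 and 49 of 75 values were negative, and the medians over all genes were 0.05, -0.04, 0.01, -0.04 and 0.00. On the C57 nuclear genome the median difference of C3H mtDNA minus C57 mtDNA was 0.12 and 0.07 in eWAT, 0.08 and 0.24 in iWAT and 0.07 in muscle. Here 13, 26, 15, 1 and 7 values were negative, and the medians over all genes were -0.01, 0, 0.02, 0.05 and 0. The subtraction is reversed between the nuclear genomes, so every member median lay on the side of C3H mtDNA. Members share libraries, and this was not tested for the members as a set. Without the 6 eWAT libraries with epithelial markers, the chow medians in eWAT were -0.23 and 0.23, the HFD medians -0.51 and 0.07, and 1 test passed. Up to 4 tests passed in eWAT when 1 library was left out (without C3Hn:C3Hmt replicate 2 on HFD), with the share of all genes not given here.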

How the data were processed

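RNA-seq was measured in 75 mouse libraries. The authors isolated RNA with the RNeasy kit, sequenced it on an Illumina HiSeq 2000 and had reads mapped with the algorithm of the sequencing provider, per the labels. The deposited gene tables hold expected counts made with RSEM against mm9, per the submitters' processing notes, which also name DESeq2 1.10.1. The RSEM version, the annotation release and any use of strand (not given in the sources used here) remain unknown. The G+C content of aligned reads and the share of ribosomal reads are in percent and the insert length is in bases, per the file headers of the deposited quality tables.

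Expected counts were rounded and fitted once per tissue over all its groups, and once over all tissues for tissue comparisons, in R 4.3.3, by the two-sided quasi-likelihood F test of edgeR 4.0.16 (TMM, filterByExpr with minimum count 10, minimum total 15 and proportion 70%). The genes tested numbered 13735 in muscle, 17687 and 16884 in eWAT and iWAT, and 18498 jointly. P-values were adjusted over all genes of a comparison. CPM carried no prior count, and log2 CPM for the G+C and length trend (limma 3.58.1, splines of 5 degrees of freedom) a prior count of 2. Transcript lengths, G+C content, positions and exon overlaps came from GENCODE vM1 on NCBIM37 (mm9), which held all 75 members.

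Members, roles, motifs and gene lists were chosen with earlier results of these data known. Named were the 5 called members with the smallest adjusted p in each direction of a comparison, the 4 highest and lowest per kilobase, members called for the nuclear genome in at least 3 combinations, the Mrps18 paralogs and 10 members known from disease or other organisms. Alternatives were DESeq2 1.42.0, other normalization and filters, covariates, the trend correction, an animal block and leaving out libraries. Replicates of a group came from different animals by their titles, and their counts differed beyond sampling noise. The replicate numbers pair no samples, but 20 animals gave both fat depots. The correlation of their deviations from the group means had a median of 0.0963, and over 0.1 in 10 of the 20 pairs.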

Additional observations from a re-analysis of the deposited data

Results flagged for a closer look

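In 4 of 105 group values tested, 1 library lay far from the others of its group, where chance gives about 1 in 20. Mrpl37 was highest at 154 CPM in C3Hn:C3Hmt replicate 1 on HFD in eWAT, which is 1 of the 6 libraries with epithelial markers. Mrps6 was lowest at 69.3 CPM in C3Hn:C57mt replicate 3 on chow in iWAT. Mrpl15 was highest at 49.0 CPM in C57n:C3Hmt replicate 1 on HFD in iWAT, the library with the highest member sum of that depot. Mrpl14 was lowest at 155 CPM in C3Hn:C3Hmt replicate 3 in muscle, which is still above every C57n muscle library.

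The nuclear difference on chow differed between tissues in 5 tests of 3 members (edgeR, all tissues in 1 fit, added after the data were seen). Of 18498 genes, 819 were higher and 963 lower in muscle against eWAT and 358 and 293 in muscle against iWAT. In eWAT against iWAT they were 405 and 218. For Mrpl55 the nuclear difference was 0.72 higher in muscle than in eWAT and 0.56 higher than in iWAT, and for Mrpl15 the difference of muscle minus iWAT was -0.80. For Mrpl37 it was -1.23 in muscle against eWAT and 1.26 in eWAT against iWAT, and without the 6 libraries with epithelial markers these became 0.01 and 0.04, neither called. Without them the Mrpl55 differences were 0.77 and 0.58 and that of Mrpl15 -0.79, all called. In that fit 1 member was higher and 2 were lower in muscle against iWAT, where 825 and 536 of 18032 genes were.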

How the results depend on the processing

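The muscle against fat counts kept their size under every alternative run. With an animal block, the fit whose pairing comes from the labels, muscle gave 70 higher and 1 lower against eWAT, 71 and 1 against iWAT, and eWAT against iWAT gave 29 lower on chow and 32 on HFD, with no other count moved by over 1.5 times. Diet counts (39 in eWAT, 28 in iWAT) became 14 and 13 with a term for run, which adjusts only among the HFD runs, and 25 in eWAT with the G+C and length trend removed. Diet calls summed over genotypes (27 in eWAT, 15 in iWAT) became 66 and 33 in DESeq2, and in eWAT 14 with the trend removed, 10 with the run term, 49 without the 6 libraries with epithelial markers and 52 with that and the trend removed. Nuclear counts became 2 in eWAT on chow without those libraries (8 in all libraries), 18 in eWAT on HFD with the trend removed and 31 with both (10), 10 in iWAT on chow with the trend removed (4), and 14 in iWAT on HFD with lymphocyte and muscle fibre covariates (7). The mtDNA exchange in eWAT gave 7 in DESeq2 and 1 without the 6 libraries, the diet by nuclear genome test in iWAT 2 in DESeq2 and 2 with covariates, and eWAT against iWAT on chow 12 without the 6 libraries. The median member in muscle was at 64.1 CPM per kilobase with mean transcript lengths (58.1 with the length of 1 transcript per gene). Mrpl4 on HFD in iWAT changed sign with the trend removed (0.0531), as did Mrpl37 in eWAT against iWAT without the 6 libraries (-0.0241). The causes were not tested.

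With 1 library or replicate number left out at a time, counts ranged as follows: diet 36 to 52 in eWAT and 26 to 44 in iWAT; diet summed over genotypes 6 to 104 and 9 to 50; nuclear genome 2 to 18 in eWAT on chow, 1 to 36 on HFD, 2 to 7 in iWAT on chow and 1 to 12 on HFD; mtDNA exchange in eWAT 0 to 4; diet by nuclear genome 0 to 29 in eWAT and 0 to 2 in iWAT; eWAT against iWAT 13 to 30 on chow and 7 to 37 on HFD. How many of all genes were called in these refits is not given here. For single named members, 1419 of 1557 alternative values kept direction and side of the threshold, 136 lost the call and 2 changed sign. Libraries of 15.7 to 31.5 M counts left all members testable, and precision is limited by 3 or 4 libraries a group.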
